A study of Mus musculus with 6 samples.

Results

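The Zfp genes are the mouse zinc finger protein genes that carry a numbered name. The members described here are the rows of the deposited gene table named Zfp followed by digits only whose counts, summed over all 6 libraries, reached 600. This left 223 of 353 such rows, in a table of 26776 genes. The 130 other rows stayed under 600 counts. The sum of counts over both groups chose the members and is not tested. It ran from 600 to 86680 with a median of 1982. At the border, Zfp449, Zfp965 and Zfp458 stood just inside with 600, 602 and 622 counts, and Zfp970, Zfp7 and Zfp958 stood just outside with 598, 583 and 573.

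The labels name the cells LT-HSCs, long-term haematopoietic stem cells that sustain all blood lineages. They were sorted from marrow of Trim47+/eGFP mice, and their RNA was sequenced in bulk. All cells therefore carried the same genotype, in which the name places an enhanced green fluorescent protein on 1 allele of Trim47, and were otherwise untreated as far as the labels say. One group was sorted for low (eGFPlo) and the other for high (eGFPhi) fluorescence, with 3 libraries each. The sources used here do not give the age or number of the mice, the gate for LT-HSCs, or whether each replicate is another mouse, so the p-values rest on the spread between libraries, which may be technical. The design holds 1 comparison, eGFPhi against eGFPlo.

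Most zinc finger proteins of this kind fold short stretches around a zinc ion through a pair of cysteines and a pair of histidines (C2H2 fingers), and each finger reads a few bases of DNA. Many also carry a KRAB box, which recruits the corepressor Trim28 and through it the histone methyltransferase Setdb1, so that heterochromatin forms where the fingers bind; retroviral and other transposable elements are the best known targets. KRAB zinc finger genes arose by repeated duplication and lie in clusters, with near-identical neighbours. Other numbered Zfp genes are unrelated to this silencing: some are transcriptional activators, RNA-binding proteins or ubiquitin ligases. Of the 220 members with a coding transcript in GENCODE M21, 215 held at least 1 C2H2 finger pattern in the translated sequence. The 5 without one were Zfp36, Zfp330, Zfp503, Zfp703 and Zfp839. A KRAB box was found in 116 members and not in 104, and the remaining 3 had no coding transcript. The box was sought with a sequence profile, which may have missed some. Members without the box are those in which it found none. KRAB members had a median of 12 fingers and the members without the box a median of 7. At 37, Zfp142 had the most fingers.

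The members sit on 19 chromosomes. A run of Zfp rows with gaps of at most 500 kb that held at least 3 members was taken as a genomic cluster. There were 17 such clusters with 102 members, 7 of them on chromosome 7 with 39 members, and 121 members lay outside. The cluster with the largest share of members called higher among those of 6 or more members, on chromosome 4 between 146097298 and 147848366 (GRCm38), is shown first by the promoters of its members. Of its 6 members, Zfp987, Zfp982, Zfp984 and Zfp933 had a RefSeq promoter window (GRCm38.p6, 250 bases before to 50 after the start). They lie at chr4:146097062-146097361 and chr4:147492167-147492466 on the plus strand and at chr4:147809739-147810038 and chr4:147848369-147848668 on the minus strand. They are printed 5′ to 3′ because 3 of them are near copies of each other and the fourth is not; capitals mark a run of 21 bases that the first 3 share and, in Zfp933, a stretch of 12 bases that holds the motif known for the transcription factor Zfp143.
Zfp987: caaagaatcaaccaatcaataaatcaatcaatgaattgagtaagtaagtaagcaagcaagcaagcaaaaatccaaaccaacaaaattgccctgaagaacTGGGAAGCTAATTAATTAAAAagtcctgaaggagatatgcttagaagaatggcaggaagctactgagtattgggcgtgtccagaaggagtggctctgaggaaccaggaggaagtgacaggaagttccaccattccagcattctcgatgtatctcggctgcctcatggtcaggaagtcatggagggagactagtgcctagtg
Zfp982: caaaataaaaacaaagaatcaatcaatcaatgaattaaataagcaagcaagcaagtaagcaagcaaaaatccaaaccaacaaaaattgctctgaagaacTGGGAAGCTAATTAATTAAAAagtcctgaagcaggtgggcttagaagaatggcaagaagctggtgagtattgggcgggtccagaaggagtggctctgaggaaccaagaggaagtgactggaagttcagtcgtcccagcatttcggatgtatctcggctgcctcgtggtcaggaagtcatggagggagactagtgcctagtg
Zfp984: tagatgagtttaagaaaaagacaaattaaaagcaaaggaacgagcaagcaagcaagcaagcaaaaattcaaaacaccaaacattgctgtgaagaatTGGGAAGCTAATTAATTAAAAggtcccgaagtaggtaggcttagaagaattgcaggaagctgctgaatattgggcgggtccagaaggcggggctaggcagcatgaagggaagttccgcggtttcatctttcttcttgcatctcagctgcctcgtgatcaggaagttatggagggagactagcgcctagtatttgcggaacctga
Zfp933: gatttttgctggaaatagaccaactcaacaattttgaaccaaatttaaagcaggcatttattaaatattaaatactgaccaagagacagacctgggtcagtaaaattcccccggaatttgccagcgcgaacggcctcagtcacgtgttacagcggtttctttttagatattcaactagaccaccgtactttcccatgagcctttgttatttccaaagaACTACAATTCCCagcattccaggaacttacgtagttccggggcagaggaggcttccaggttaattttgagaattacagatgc

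The windows of Zfp987 and Zfp982 were 89.1% identical, and Zfp984 was 73.3% and 73.8% identical to them. Against these 3, the Zfp933 window was 50.3 to 51.1% identical. The shared run TGGGAAGCTAATTAATTAAAA began at -151 from the start in Zfp987 and Zfp982 and at -154 in Zfp984. It occurred in 7 of 11549 windows (0.0606%), all of them on chromosome 4. The other 4 belonged to Gm13212, Zfp534, Zfp980 and Zfp988, which are not members. The capitals of Zfp933 begin at -32.

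The 3 members with the shared run all had higher levels in eGFPhi. Levels are CPM, read counts as a share of the scaled library total, and calls are from edgeR's quasi-likelihood test with Benjamini-Hochberg adjustment over the 18081 genes tested, at a threshold of 0.05. Zfp987 had 4.37, 4.33 and 4.60 CPM in the eGFPlo libraries and 10.6, 10.4 and 9.35 in the eGFPhi libraries (2.27-fold, edgeR adjusted p = 5.45e-05). For Zfp982 the values were 18, 19.2 and 17.6 against 32.7, 36.1 and 34.2 CPM (1.89-fold, edgeR adjusted p = 1.85e-05). Zfp984 had 26.2, 28.2 and 26.8 against 39.5, 39.5 and 34.8 CPM (1.4-fold, edgeR adjusted p = 5.75e-04). In none of these 3 genes did the groups overlap. Zfp987 would have missed 600 counts at its eGFPlo level, so its difference is bound up with its choice as a member. Zfp933 had 10.8, 12.4 and 12.8 against 13.3, 15.8 and 14.5 CPM, groups that did not overlap, and missed the threshold (edgeR adjusted p = 0.0536). Of the non-members with the run, Gm13212 rose (log2 fold change 0.50, edgeR adjusted p = 0.00303) and so did Zfp988, from few counts (97 in all; 1.65, edgeR adjusted p = 0.00607). Zfp534, with 112 counts in all, fell by 1.18 on the log2 scale (edgeR adjusted p = 0.00474), and Zfp980 had 1 count and was not tested. The run was thus present in genes that moved in both directions.

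The remaining members of this cluster, Zfp992 and Zfp991, also rose, by 0.45 and 0.84 on the log2 scale (edgeR adjusted p = 3.30e-04 and 2.00e-04). Summed over the 6 members, levels were 93.8 to 100 CPM in eGFPlo and 144 to 158 CPM in eGFPhi. These genes share sequence: 81.7% of the 75-base windows in the transcripts of Zfp987 also occur in another gene's transcripts, as do 75.9% for Zfp991, 40.9% for Zfp984 and 34.5% for Zfp992. For Zfp984 the gene with the most windows in common was Gm13212, whose rise is given above. How the authors' counting treated reads that match several genes is not stated. Counts of Zfp987, Zfp991, Zfp984 and Zfp992 may therefore be shared between them or with other genes, Gm13212 among them. Only 4.93% of the windows of Zfp982 and none of those of Zfp933 had such a copy.

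Over all 223 members, 82 were called higher in eGFPhi and 35 lower, and 106 were not called. The background was high: 32.3% of all 18081 tested genes were called higher and 31.7% lower. Among the 11682 tested genes that also reached 600 counts, the shares were 31.6% higher and 34.8% lower. Of the members, 36.8% were called higher, near the background, and 15.7% lower, which is below it. The median log2 fold change of the members was 0.13 (quartiles -0.11 and 0.38, range -2.32 to 2.47), beside 0.00 over all tested genes (quartiles -0.40 and 0.49) and -0.02 over those with 600 counts or more. Most changes were small: 65 of the 117 called members differed by less than 1.5-fold, 16 rose and 5 fell by 2-fold or more. In summed level the members made up 8820 to 8842 CPM in the eGFPlo libraries and 9560 to 9757 CPM in the eGFPhi libraries, so each eGFPhi library exceeded each eGFPlo library. In bulk RNA, a larger share of cells that express a gene and more of its RNA per cell cannot be told apart.

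The groups did not overlap, with eGFPhi above, for 90 members and, with eGFPhi below, for 41; over all tested genes these shares were 35.2% and 34.6%. For the other 92 members the groups overlapped, and 6 of those were called all the same. Replicates here differed little for most genes: the biological coefficient of variation that edgeR estimated over all genes was 0.0941. With a coefficient of 0.2 assumed instead, a likelihood ratio test in edgeR called 42 members higher and 14 lower. Over all tested genes it called 20.1% higher and 16.5% lower. Among the 11682 tested genes with 600 or more counts it called 1700 higher and 1542 lower. The members it called include Zfp60, higher, and Zfp260, Zfp182 and Zfp346, lower, which the quasi-likelihood test did not call. Since the members were chosen by their counts, a gene low in 1 group could enter through the other: 19 members would have missed 600 counts at the level of their lower group, of which 14 were called higher and 3 lower. Their fold changes and p-values are therefore given as a description: they passed only through the group where they are higher. Of the genes described here these are Zfp618, Zfp449, Zfp870, Zfp248, Zfp287, Zfp965, Zfp987, Zfp57 and Zfp566 and the Zfp91 row without a coding transcript, all called higher. Zfp341, Zfp959 and Zfp560, called lower, and Zfp260 and Zfp458, not called, are also among them. Of the other 204 members, 68 were called higher and 32 lower.

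**Figure D1:**
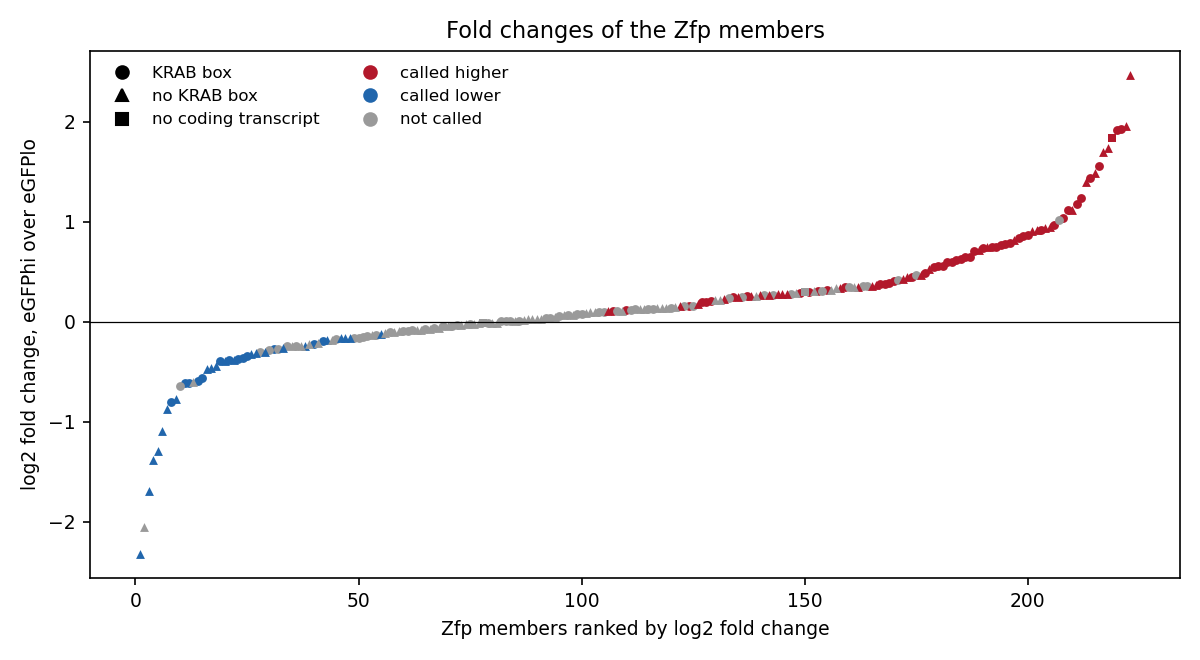
Log2 fold change (eGFPhi over eGFPlo, y axis) of the 223 Zfp members in rank order (x axis), with 1 point per gene. Colour gives the call at an adjusted p of 0.05 and shape the presence of a KRAB box. The middle of the ranking lies close to 0, and few genes reach the ends at 2.47 and -2.32.

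The libraries also differed strongly outside the Zfp genes. Totals ran from 11221070 to 26058391 counts. Of 12 LT-HSC markers 11 were higher in eGFPhi (summed 1021 to 1053 CPM in eGFPlo, 2284 to 2495 in eGFPhi) and none was lower. All 15 granulocyte-monocyte progenitor markers tested were lower in eGFPhi (6647 to 6769 against 983 to 1210 CPM). Of 16 B cell markers 13 were lower and 1 higher (6284 to 6377 against 808 to 841 CPM). Also lower were 10 of 12 erythroid markers (236 to 258 against 114 to 123 CPM). The 5 T and NK cell markers tested were lower (23.7 to 25.5 against 3.03 to 4.37 CPM over these 5). So were all 12 proliferation markers (2901 to 2955 against 1181 to 1194 CPM). Within eGFPlo the summed B cell markers and the summed granulocyte-monocyte progenitor markers each exceeded those of LT-HSCs, the name both groups carry. Within eGFPhi both were below the LT-HSC markers. The lists differ in their genes and in length, so the order of these sums does not give shares of cell types. Vpreb3, Cd22 and Igll1 had no counts in eGFPhi, nor had Cd3d, Cd3e, Cd3g, Cd8a, Trbc2 and Klrd1. The part of these differences in the Zfp results was not tested.

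The largest rises and falls are given for called members whose groups did not overlap, so the separation of their groups is part of the choice. Of the 10 largest rises, Zfp618, Zfp449, Zfp870, Zfp248 and Zfp287 reached 600 counts only through their eGFPhi level, while Zfp740, Zfp521, Zfp462, Zfp715 and Zfp827 would have reached it at either level. Zfp618 stood first. Its protein binds 5-hydroxymethylcytosine in DNA, and the gene (ENSMUSG00000028358) lies on the plus strand of chromosome 4 from 62965573 to 63139708 (GRCm38). Zfp618 had 4.03, 4.54 and 3.60 CPM in the eGFPlo libraries and 21.8, 23.9 and 21.3 CPM in the eGFPhi libraries. The means were 4.06 ± 0.473 and 22.3 ± 1.37 CPM (SD, n = 3 each), a 5.52-fold rise (log2 2.47, SE 0.11, edgeR adjusted p = 1.68e-06). The lowest eGFPhi library lay far above the highest eGFPlo library. Zfp449, a gene of the X chromosome, rose 3.89-fold, from 2.66, 2.03 and 2.21 to 8.99, 8.18 and 9.56 CPM (edgeR adjusted p = 1.84e-05). Zfp740 was better counted and as uniform: 14.7, 13.8 and 15.1 CPM in eGFPlo against 45.6, 50.3 and 49.8 in eGFPhi (3.34-fold, edgeR adjusted p = 7.34e-07). Its exons overlap those of Csad on the other strand, and the strand setting of the counting is not given.

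Zfp521, known as an insertion site of leukaemia viruses and as a multi-finger regulator expressed in haematopoietic stem cells, had 11, 16.3 and 26.5 CPM in eGFPlo and 47.4, 64.4 and 65.7 CPM in eGFPhi. It rose 3.25-fold (edgeR adjusted p = 0.00113). The eGFPlo libraries differed among themselves, but the highest of them stayed well under the lowest eGFPhi library. Zfp462, a protein with 34 finger patterns that is known to restrain enhancers through heterochromatin, had 9.34, 9.30 and 9.63 CPM against 28.8, 25 and 25.7 CPM (2.80-fold, edgeR adjusted p = 5.05e-06). Zfp827, linked to telomeres and the NuRD complex, had 14.3, 16.6 and 12.6 CPM against 44.8, 34.8 and 35.7 CPM (2.64-fold, edgeR adjusted p = 7.21e-05). The groups of both genes were far apart.

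Among these 10 were the KRAB genes Zfp248, Zfp715, Zfp870 and Zfp287, of which Zfp715 alone would have been a member at its eGFPlo level. Zfp248 was nearly constant in eGFPhi, with 16.6, 16.6 and 16.4 CPM, against 3.77, 4.75 and 4.54 CPM in eGFPlo (3.77-fold, edgeR adjusted p = 4.77e-06). Zfp715 had 10.0, 12.5 and 12.1 CPM against 32.1, 32.5 and 30.1 CPM (2.72-fold, edgeR adjusted p = 1.00e-05). In Zfp870 and Zfp287 1 eGFPlo library stood apart. Zfp870 had 3.17, 0.559 and 3.65 CPM against 9.97, 9.80 and 8.73 CPM (3.8-fold, edgeR adjusted p = 0.00607), and Zfp287 had 4.37, 1.54 and 4.04 against 7.92, 12.3 and 8.68 CPM (2.94-fold, edgeR adjusted p = 0.00485). The low value of both genes came from eGFPlo replicate 2.

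**Figure D2:**
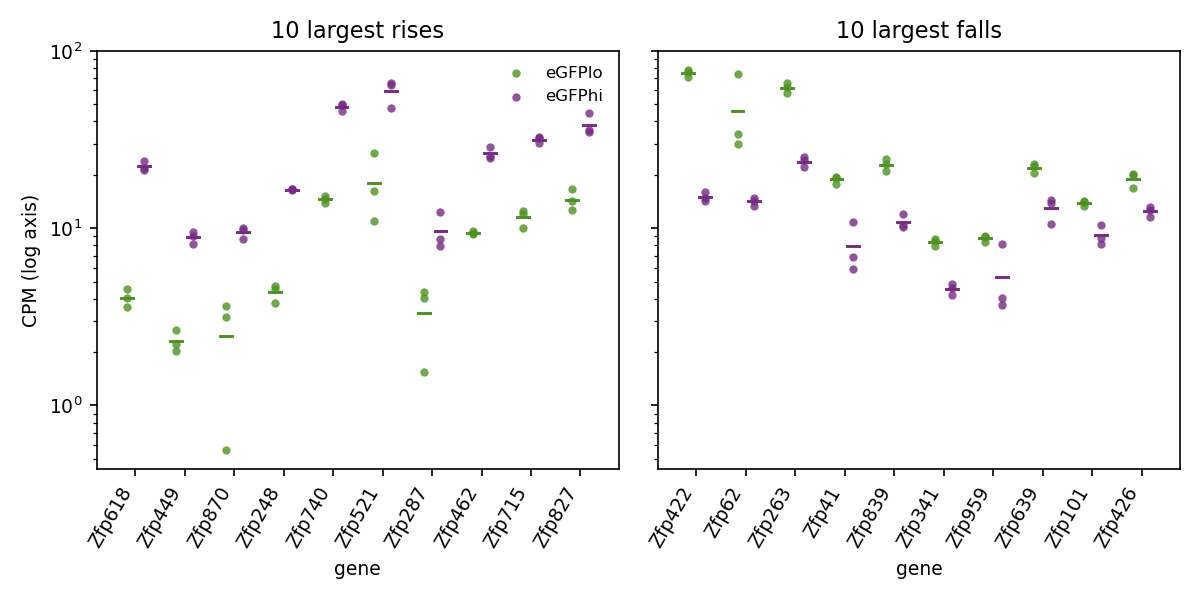
Levels in CPM (log axis) of the 10 members with the largest rise (left) and the 10 with the largest fall (right) among called members whose groups do not overlap; points are libraries and bars are group means, n = 3 per group. The groups are separate by choice of the genes, and single libraries of Zfp870, Zfp287, Zfp62 and Zfp959 stand apart within their group.

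At the lower end, Zfp422 fell by 2.32 on the log2 scale (SE 0.06). The gene (ENSMUSG00000059878) lies on the minus strand of chromosome 6 from 116624016 to 116628999 (GRCm38) and held 6 finger patterns. It had 75.8, 71.1 and 78.3 CPM in eGFPlo and 14.9, 14.3 and 16 CPM in eGFPhi. The means of 75.1 ± 3.63 and 15.1 ± 0.885 CPM (SD, n = 3 each) were 4.99-fold apart (edgeR adjusted p = 1.98e-07). The replicates agreed closely in both groups. Zfp263 had 65.6, 57.8 and 62.6 CPM against 22.1, 24.1 and 25.1 CPM (2.60-fold lower, edgeR adjusted p = 2.74e-06). Zfp62 was less uniform in eGFPlo, with 33.9, 74.0 and 29.9 CPM, against 13.4, 14.2 and 14.9 CPM (3.23-fold lower, edgeR adjusted p = 0.00314). The highest of these values came from eGFPlo replicate 2.

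Zfp41 (2.44-fold) and Zfp839 (2.12-fold), which has no C2H2 pattern, completed the 5 members that fell by 2-fold or more. Zfp41 had 19.2, 19.5 and 17.8 CPM against 10.9, 6.88 and 5.91 CPM (edgeR adjusted p = 0.00101), and Zfp839 had 22.9, 21.0 and 24.7 against 12, 10.1 and 10.4 CPM (edgeR adjusted p = 6.35e-05). The profile used found a KRAB box in none of these 5. The next falls were Zfp341, Zfp959, Zfp639, Zfp101 and Zfp426, of 1.83- to 1.53-fold. Of these, Zfp959 had 8.31, 9.02 and 8.92 against 8.10, 3.69 and 4.06 CPM, so that 1 eGFPhi library was close to the eGFPlo level. It was called (edgeR adjusted p = 0.0373) and lost the call when any library other than eGFPhi replicate 1 was left out (edgeR adjusted p up to 0.113).

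The calls are given next by protein class. Of the 116 KRAB members 48 (41.4%) were called higher and 13 (11.2%) lower, with a median log2 fold change of 0.16. Of the 104 members in which no box was found 33 (31.7%) were called higher and 22 (21.2%) lower, with a median of 0.07. With the assumed coefficient of variation of 0.2 the counts were 27 higher and 5 lower among KRAB members, and 14 and 9 among the others. The classes also differed in level. KRAB members had a median of 3.15 CPM per kb of the gene's merged annotated exons and the others 6.60. A class is a description of these genes, and the difference between classes was not tested. The counts of both classes include members that reached the count minimum only through the group where they are higher.

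Of the 78 KRAB members in clusters, 28 were called higher and 12 lower (median 0.10). Of the 38 outside clusters, 20 (52.6%) were called higher and 1 (2.63%) lower, with a median of 0.29. That 1 was Zfp959. Those called higher included Zfp248, Zfp287 and Zfp715, and, at smaller size, Zfp12 (40.8, 42.4 and 40.9 against 64.4, 63.1 and 63.7 CPM, edgeR adjusted p = 1.03e-05) and Zfp316 (20.8, 23.3 and 22.8 against 34.5, 36.3 and 34.3 CPM, edgeR adjusted p = 8.58e-05). In both genes the groups were far apart. They lie side by side on chromosome 5, from 143235163 to 143248834 and from 143249697 to 143270022. A member outside clusters can thus still have a Zfp neighbour. Of the members without a detected KRAB box, 7 of 23 in clusters and 26 of 81 outside were called higher, and 4 and 18 lower. The difference by position was not tested, and the split was looked at after the calls were known. Some KRAB members counted here would have missed the count minimum at the level of their lower group. Outside clusters these were Zfp248, Zfp287, Zfp965 and Zfp57, called higher, and Zfp959, called lower. In clusters they were Zfp870, Zfp987 and Zfp566, called higher, Zfp560, called lower, and Zfp458, not called. The split thus rests in part on how the members were chosen.

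**Figure D3:**
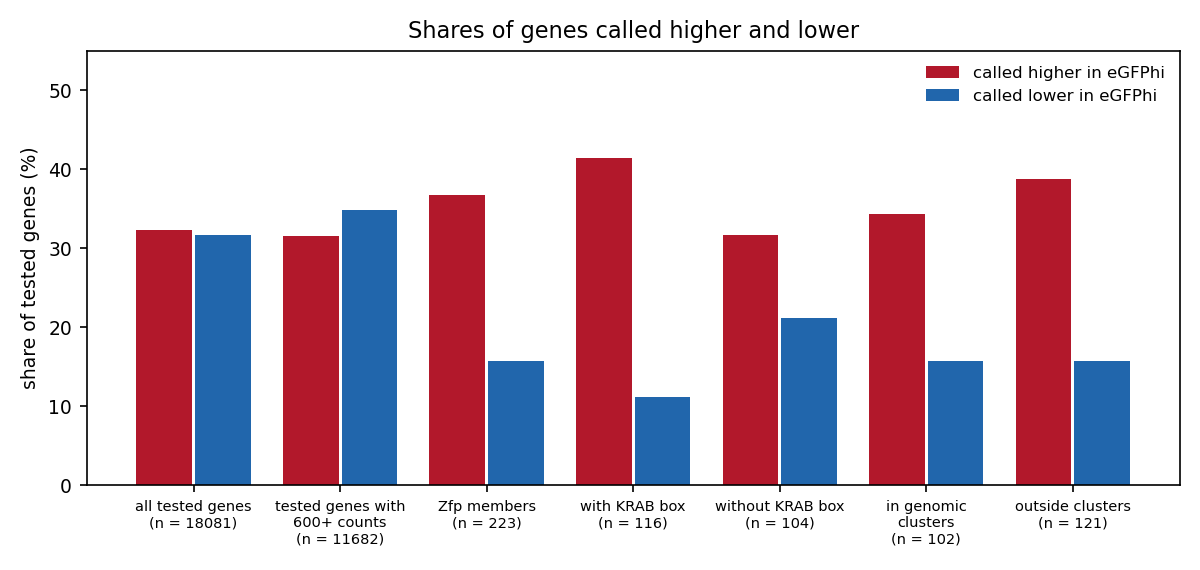
Share of genes called higher (red) and lower (blue) in eGFPhi, in percent of the genes tested, for all tested genes, those with 600 or more counts, the Zfp members and their classes. The members' share called lower is 15.7%, beside 31.7% of all tested genes, and that of the KRAB members is 11.2%, the lowest of the 7 sets drawn.

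A few KRAB members have known targets; they were picked for that after their values were seen. Zfp809, which recruits Trim28 to the primer binding site of murine retroviruses, had 13.2, 12.2 and 10.5 CPM in eGFPlo and 20.9, 28.1 and 23.7 CPM in eGFPhi (2.05-fold, edgeR adjusted p = 3.60e-04). Zfp57, which keeps methylation at imprinted regions, had 5.83, 5.31 and 5.15 against 8.28, 10.1 and 10.9 CPM (1.82-fold, edgeR adjusted p = 8.65e-04). For both genes each eGFPhi library was above each eGFPlo library. Zfp445, the other known guardian of imprints, was more abundant but hardly moved, with 94.3, 93.0 and 94.0 against 98.0, 102 and 103 CPM. Its call (1.08-fold, edgeR adjusted p = 0.0229) was lost without replicate 2 or 3 of either group (edgeR adjusted p up to 0.0792). Zfp568, known to silence a placental transcript of Igf2, had 28.3, 45.9 and 50.7 CPM against 28.4, 28.7 and 26.5 CPM. Its groups overlapped, because eGFPlo replicate 1 was at the eGFPhi level. It was called lower (edgeR adjusted p = 0.0276), and the call held in 1 of the 6 fits that left out a library, that without eGFPlo replicate 1 (edgeR adjusted p = 1.81e-04 there, up to 0.0924 in the others). Zfp932, a repressor of endogenous retroviruses, had 11.8, 11.2 and 11.9 against 18.9, 16.4 and 19.6 CPM (1.57-fold, edgeR adjusted p = 6.84e-04); 26.4% of its 75-base windows occur in another gene.

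Most of the genes that KRAB proteins work with were lower in eGFPhi. Of the 21 corepressor and heterochromatin genes in the table, 16 were called lower in eGFPhi and none higher, with a median log2 fold change of -0.28, beside 31.7% of all tested genes called lower and a median of 0.00. At the assumed coefficient of variation 4 were lower and none higher, a share near the 16.5% of all tested genes called lower there. Without eGFPhi replicate 3 the edgeR quasi-likelihood test called 1 higher. Their summed level was 4814 to 4911 CPM in eGFPlo and 3998 to 4126 CPM in eGFPhi. Trim28, the corepressor that binds the KRAB box, had 313, 310 and 306 against 238, 250 and 255 CPM (1.25-fold lower, edgeR adjusted p = 5.98e-05). Setdb1, which writes H3K9me3 with it, had 76.3, 78.8 and 77.9 against 59.5, 57.1 and 57.2 CPM (1.34-fold lower, edgeR adjusted p = 4.99e-05). Neither gene's groups overlapped. Dnmt1, the maintenance DNA methyltransferase, was 1.43-fold lower (edgeR adjusted p = 1.15e-06), Cbx3, an HP1 protein, 1.63-fold lower (edgeR adjusted p = 2.31e-06), and Chd3, a NuRD remodeller, 1.24-fold lower (edgeR adjusted p = 7.25e-06). Uhrf1, which brings Dnmt1 to replicating DNA, fell most, from 293, 290 and 251 to 118, 122 and 125 CPM (2.28-fold lower, edgeR adjusted p = 3.16e-06). Atrx, Atf7ip, Mphosph8, Pphln1 and Smarcad1 were not called. The proliferation markers named above were lower in the same libraries; their part in this result was not tested.

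By cluster, calls ran in both directions in 10 of the 17, in the higher direction alone in 6 and in the lower direction alone in 1. The cluster medians ran from -0.14 to 0.75 and 14 were above 0. Among neighbouring members of a cluster that were both called, 11 pairs shared their direction and 8 did not. Both kinds of pair thus occurred.

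The longest run was on chromosome 17, from 21008903 to 23564238, with 15 members, all with a KRAB box. In it 6 were called higher and 2 lower, with a median log2 fold change of 0.01. Zfp945 (19.9, 17.8 and 20 against 29.5, 29.7 and 30.2 CPM, edgeR adjusted p = 1.31e-04), Zfp820 (1.51-fold, edgeR adjusted p = 0.00298) and Zfp942 (1.30-fold, edgeR adjusted p = 9.13e-04) led the rises. At its start, Zfp160 fell, from a mean of 14.4 to 11.1 CPM (edgeR adjusted p = 0.00386). The other cluster of chromosome 17, from 32765496 to 33631779, held Zfp870 with the largest rise inside any cluster, together with Zfp871 (109, 101 and 106 against 136, 127 and 130 CPM, edgeR adjusted p = 4.45e-04) and Zfp799 (11.4, 9.71 and 5.32 against 17.5, 16.4 and 17.1 CPM, edgeR adjusted p = 0.00868). Zfp101 in the same stretch fell 1.53-fold, from 13.3, 14.3 and 14.1 to 8.81, 8.18 and 10.4 CPM (edgeR adjusted p = 0.00207). None of these genes' groups overlapped.

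On chromosome 7 several clusters were mixed. Between 29768552 and 30169750, 9 members gave 2 calls higher and 3 lower. Zfp566 there had 5.65, 5.31 and 6.64 against 9.70, 9.30 and 10.8 CPM (1.68-fold higher, edgeR adjusted p = 0.00125), and Zfp27 had 10.4, 12.1 and 10.7 against 7.39, 8.68 and 6.32 CPM (1.47-fold lower, edgeR adjusted p = 0.00926). Between 42473386 and 42692742, all 3 members were called. Zfp976 rose 1.68-fold (10.8, 11.2 and 10.0 against 17.8, 17.1 and 18.8 CPM, edgeR adjusted p = 1.77e-04) and Zfp975 1.73-fold (edgeR adjusted p = 3.25e-04). Their neighbour Zfp141, with more counts than both, had 58.3, 53.5 and 53.9 against 46.9, 46.3 and 44.6 CPM (1.2-fold lower, edgeR adjusted p = 0.00245). The summed level of this cluster was therefore nearly the same in both groups, 70.0 to 75.6 CPM in eGFPlo and 73.4 to 75.6 in eGFPhi, although each gene moved. Between 127233061 and 127885996, 7 of 8 members were not called, and Zfp768 fell (17.9, 20 and 19.0 against 13.4, 13.5 and 14.2 CPM, edgeR adjusted p = 0.00126).

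Of the remaining clusters, those of chromosomes 6, 9 and 13 held the following calls. On chromosome 9, Zfp809 rose beside Zfp653, Zfp599 and Zfp810, which were not called (edgeR adjusted p = 0.623, 0.0533 and 0.696). In the other chromosome 9 cluster, Zfp426 fell (16.8, 20.3 and 19.9 against 11.6, 12.6 and 13.1 CPM, edgeR adjusted p = 0.00118) and Zfp266, the most abundant of the 5, rose (69.6, 66.0 and 64.6 against 72.4, 85.5 and 80.6 CPM, edgeR adjusted p = 0.00984). On chromosome 13, 2 of 7 members were called, Zfp953, which rose 1.47-fold (edgeR adjusted p = 0.00329), and Zfp738, which rose 1.15-fold (edgeR adjusted p = 0.0419) and kept its call in 1 of the 6 fits without 1 library, that without eGFPhi replicate 3 (edgeR adjusted p up to 0.123). On chromosome 6, 5 of 8 members were called; Zfp398 rose 1.19-fold while Zfp282 and Zfp777 fell 1.16- and 1.14-fold (edgeR adjusted p = 0.00246, 0.00708 and 0.00955).

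**Figure D4:**
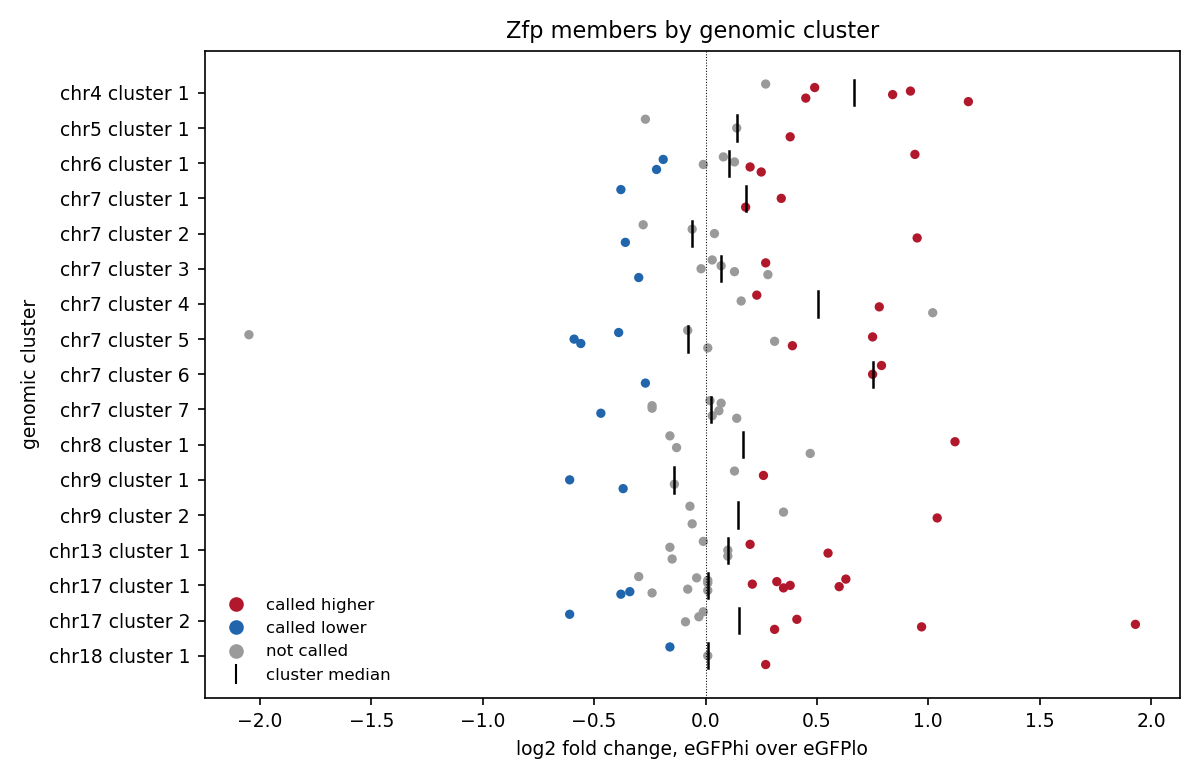
Log2 fold change (eGFPhi over eGFPlo, x axis) of the 102 members in the 17 genomic clusters (y axis), with 1 point per gene coloured by its call and a bar at the median of each cluster. In 10 clusters red and blue points occur together, while the chromosome 4 cluster has 5 red points of 6 and a median of 0.67.

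The most abundant members were mostly not KRAB genes and changed little. Zfp36, Zfp106 and Zfp608 together held 17.4% of all member counts. Zfp36 (tristetraprolin), a CCCH protein that promotes decay of mRNAs with AU-rich elements, had 779, 779 and 787 against 895, 925 and 930 CPM (1.17-fold, edgeR adjusted p = 3.61e-05). Per length of merged annotated exons it was also first, at 245 CPM per kb, before Zfp608 at 42.2 and Zfp106 at 37.0. Zfp106, an RNA-binding protein, had 346, 353 and 347 against 427, 418 and 424 CPM (1.21-fold, edgeR adjusted p = 1.66e-05). Zfp608 had 326, 276 and 317 against 414, 424 and 398 CPM (1.34-fold, edgeR adjusted p = 5.23e-04), while its relative Zfp609 was lower, with 131, 127 and 128 against 110, 114 and 121 CPM (1.12-fold, edgeR adjusted p = 0.00848). The groups of these 4 genes did not overlap.

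Zfp91, a ubiquitin ligase, was lower, with 314, 306 and 305 against 270, 268 and 237 CPM (1.2-fold, edgeR adjusted p = 0.00288). Another row of the table named Zfp91 (ENSMUSG00000118491), which spans the same locus and had no coding transcript in GENCODE M21, is also a member. It had 2.06, 2.87 and 2.77 against 2.05, 6.22 and 18.9 CPM and was called higher (3.58-fold, log2 1.84, edgeR adjusted p = 0.0491), although its groups overlapped. The call was lost without any eGFPlo library and without eGFPhi replicate 3, where the log2 fold change was 0.78 (edgeR adjusted p up to 0.157 over the 6 fits). How reads in the stretch that both rows cover were assigned is not stated. Zfp207, a spindle and kinetochore protein, was lower too, with 181, 172 and 168 against 139, 142 and 138 CPM (1.24-fold, edgeR adjusted p = 1.76e-04). The calls of Zfp36, Zfp106, Zfp608 and Zfp91 rest on the small spread of these libraries: at the assumed coefficient of variation their edgeR adjusted p were 0.491, 0.383, 0.153 and 0.432. Zfp644, a partner of the G9a and GLP methyltransferases, led the genes that were not called, with 193, 200 and 172 against 217, 185 and 206 CPM (edgeR adjusted p = 0.249). Zfp704, Zfp407 and Zfp592 followed, with fold changes of 1.01 to 1.02 and groups that overlapped.

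Single libraries stood apart more often in the members than in other genes of their depth, as a description of these 6 libraries. In 23 of 223 (10.3%) the highest replicate of a group was over 2 times the lowest, beside 3.48% of tested genes with 600 or more counts. With genes of 600 to 5000 counts on both sides, to match depth roughly, the shares were 12.9% of members and 4.84% of genes. Of the 23, 12 varied so in eGFPlo alone, 9 in eGFPhi alone and 2 in both; 13 had a KRAB box. Zfp292 was the extreme among well-counted genes: it had 108, 111 and 83.1 CPM in eGFPlo and 230, 37.1 and 26.4 CPM in eGFPhi (edgeR adjusted p = 0.921). Zfp260 had 20.7, 1.68 and 41.7 CPM against 3.83, 3.77 and 7.86 CPM, and its 4.15-fold lower mean missed the threshold (edgeR adjusted p = 0.0718). In Zfp60, eGFPlo replicate 3 was low (12.9, 13.8 and 3.10 against 18.4, 22.1 and 18.2 CPM, edgeR adjusted p = 0.0776).

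Zfp260 and Zfp60 were the only members over 2-fold that were not called. In Zfp182 eGFPhi replicate 1 was low, with 5.79 CPM beside 18.2 and 18.6, against 22.4, 22.7 and 23.6 in eGFPlo. In Zfp758 it was eGFPhi replicate 3, with 6.83 beside 21.0 and 23.4 CPM, against 16.9, 16.3 and 17.4 CPM. Zfp467 also had its odd value there (40.1, 43.0 and 16.5 CPM against 17.8, 17.3 and 16.7), and its call (edgeR adjusted p = 0.0356) held only without that library among the fits that left out 1 (edgeR adjusted p = 2.68e-05 there, up to 0.117 in the others). In each of these genes a single library set whether the groups overlapped or how far apart they were.

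Promoter windows were available for 165 members and, in all, for 11549 genes of the table. The median member window held 16 CpG and the median of all windows 20. KRAB members had a median of 12 and the members without the box 21. Of 8 motifs searched on both strands, CCAAT occurred in 48.5% of member windows and 38.7% of all, and GGGCGG in 50.9% and 61.0%. The stretch marked in Zfp933 above, ACTACAATTCCC, was in 5 member windows (3.03%) and 0.563% of all. It was read from the Zfp933 window, which is therefore among the 5, and all windows include those of members. CCGGAAG, the core bound by ETS factors, was in 20% of member windows and 16.7% of all. It was in 7 of 60 windows of members called higher and in 9 of 26 of those called lower. Among members not called it was in 17 of 79. The split by call is given for this motif alone of the 8. Shares of other motifs also differed by call, in either direction, and no split was tested. Zfp143 itself, a member without a KRAB box, was called lower, with 24, 24.8 and 26 against 21.8, 21.7 and 22.7 CPM (1.13-fold, edgeR adjusted p = 0.0374), a call lost in 5 of the 6 fits without 1 library, all but that without eGFPlo replicate 1 (edgeR adjusted p up to 0.115). The other 4 motifs were TATAAA, AAGATGGC, TGACGTCA and CACGTG, each in under 10% of member windows. A match describes these letters and is not evidence of a bound site.

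Sequence shared between genes was measured in 75-base windows. Of the 222 members with a value, 129 had no window in common with another gene's transcripts, and 10 had over 20%. Of those 10, 6 were called higher and none lower; of the remaining 213 members 76 were called higher and 35 lower. Zfp965, the member with the second smallest total, was the most affected, with 94.6% of its windows shared. Exon bases overlapped those of another gene on the same strand in 18 members and on the other strand in 55.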

How the data were processed

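Members and gene lists were chosen with earlier results of these data known. Per the labels' protocols, poly-A RNA was captured on beads, and stranded libraries were read from both ends. The submitters' processing notes name CASAVA 1.8, HISAT2, StringTie and edgeR and the builds hg38 and GRCm38. The authors deposited counts per gene, per the file headers, used here as raw read counts; the FPKM values the authors deposited beside them were not used. The read counter and its strand setting are not stated. Gene coordinates equalled those of GENCODE M21 for 220 of the 223 members.

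The whole table was fitted with edgeR 4.0.16 in R 4.3.3 (filterByExpr, minimum count 10 and total 15; TMM factors; quasi-likelihood F test with group as the only term; Benjamini-Hochberg adjustment). All 223 members were tested, as were 112 of the 130 Zfp rows below 600 counts. Totals of 11221070 to 26058391 counts put 3 counts at 0.115 to 0.267 CPM. The pipeline was tested on simulated data. Exact permutation of 3 against 3 libraries could not give a p under 0.1 and was not used.

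The KRAB box was sought with a profile (pyhmmer 0.12.3, E-value under 0.001) in translated GENCODE M21 coding transcripts, in place of the RefSeq proteins first planned, which were not used here. Finger counts are pattern matches. Shared sequence is the share of 75-base windows that also occur in another gene's transcripts. Promoters are RefSeq's (GRCm38.p6), kept within 1000 bases of the deposited gene's start.

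Genes were named by rule: the 10 largest rises and falls among called members whose groups do not overlap; up to 3 called members with the smallest p per cluster; the 5 members with the most counts and the 4 with the most among those not called; the 3 on each side of 600 counts; and Trim28, Setdb1 and the 4 called cofactors with the smallest p. Some of these are not described. All other named genes were chosen after their values were seen. Replicate numbers are not said to pair libraries: residuals of same-numbered libraries correlated at -0.0133, 0.000555 and -0.0108. Alternatives were DESeq2 1.42.0, limma-voom (limma 3.58.1), edgeR with upper-quartile or RLE factors, without a filter or with one of 5 CPM in 3 libraries, an assumed coefficient of variation of 0.2, a replicate block, leaving out each library, and other count minimums (300 and 1200), overlap rules and cluster gaps (250 and 1000 kb). The set of members with at most 20% shared windows was added after the data were seen.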

Additional observations from a re-analysis of the deposited data

How the results depend on the processing

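Counts of members called stayed within 1.5 times under every alternative except the assumed coefficient of variation of 0.2, a likelihood ratio test, which gave 42 members higher and 14 lower (KRAB members 27 and 5, members without the box 14 and 9) and 4 cofactors lower; this alternative sets the spread by hand. Leaving out each library in turn gave 72 to 80 members higher and 31 to 36 lower, and 0 to 1 cofactors higher, the 1 without eGFPhi replicate 3. Of the called members, 66 higher and 26 lower were called in the edgeR fit and in every fit without 1 library; 37 and 9 were called in every fit run. The replicate block gave 80 higher and 35 lower and, among cofactors, 0 and 15. The labels do not say whether the replicate numbers pair the libraries. The median log2 fold change of the members was 0.13, and 0.11 to 0.16 without 1 library. Over 64 named genes, 820 comparisons with an alternative kept direction and side of the threshold, 76 lost the call and 0 reversed. The spread between 3 libraries per group, possibly technical, limits these calls.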
